A study of Arabidopsis thaliana with 12 samples.

Results

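Late embryogenesis abundant (LEA) proteins other than dehydrins were followed in 12-day-old Arabidopsis thaliana seedlings that were or were not treated with abscisic acid (ABA). The group was a fixed list of 41 loci defined by gene identity, and it was chosen for description with earlier results of these data known. All 41 had a row in the deposited table of 33602 genes. Of these, 31 had enough reads to be tested and 10 did not. Following the usual division of Arabidopsis LEA proteins by sequence, the 41 loci comprised 18 genes of the LEA_4 family, 6 of the SMP (seed maturation protein) family, 4 of LEA_3, 3 each of LEA_1, LEA_2 and PvLEA18, and 2 each of LEA_5 and AtM. The question addressed was how far ABA changed the transcripts of these genes in the wild type and in a mutant that lacks RAF protein kinases acting in the ABA pathway.

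LEA proteins are small and mostly very hydrophilic. They accumulate in seeds late in maturation, when the embryo dries, and in vegetative tissue under drought, cold or ABA. Most are disordered in solution and fold as water is withdrawn, and they are thought to shield membranes and other proteins from drying and freezing. ABA reaches their genes through SnRK2 kinases and bZIP transcription factors of the ABI5 and ABF type, which bind promoter motifs called ABA-responsive elements (ABREs), and in seeds also through the B3-domain factor ABI3.

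RNA was sequenced from 4 groups of Col-0 background seedlings with 3 libraries each: wild type without treatment (WT control), wild type with ABA (WT ABA), the mutant labelled m9 without treatment (m9 control) and m9 with ABA (m9 ABA). The paper names the sequenced mutant as OK100-oct, a CRISPR-Cas9 line with null mutations in 8 RAF genes, and the label m9 alone does not exclude the related line OK100-nonu, in which a further RAF gene is mutated. The methods name a single mutant line, do not give the dose or duration of ABA for the sequenced seedlings, and state an age of 2 weeks where the labels give 12 days. The labels do not say that the 3 libraries of a group came from separate plantings, so p-values measure only the spread between these libraries. Total counts ranged from 16632701 to 19945936 in WT control, 21602836 to 26661613 in WT ABA, 22265884 to 24048676 in m9 control and 20981219 to 25494850 in m9 ABA. Of the 8 RAF genes, 5 had fewer counts in m9 control than in WT control at a false discovery rate (FDR) under 0.05 and 0 had more. Leaf markers were abundant, as in seedlings, and of 10 seed storage protein genes 9 had a mean of at most 0.675 CPM (read counts scaled to library size) in every group. One library stood apart on these markers: the 9 genes for 12S and 2S storage proteins had 81 counts together in m9 ABA replicate 2, 41 of them from CRA1 and 21 from CRU3, and between 1 and 9 counts in each of the other 11 libraries. Members with many of their m9 ABA counts in this library are named below.

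ABA raised most of the LEA transcripts in both genotypes, and the levels reached in m9 were far below those of the wild type. The summed level of the 41 genes was 546.2, 611.3 and 647.6 CPM in the WT control libraries and 9124, 8633 and 9406 CPM in the WT ABA libraries. It was 524.7, 613.2 and 539.2 CPM in m9 control and 1952, 2148 and 2110 CPM in m9 ABA. The CPM scaling included a TMM factor for each library, a composition correction. The groups with ABA did not overlap the controls, and m9 ABA lay wholly between WT control and WT ABA. On average the sum rose 15.0-fold with ABA in the wild type and 3.70-fold in m9, so that m9 ABA stood at 22.9% of WT ABA while m9 control stood at 92.9% of WT control. In bulk seedlings, fewer cells that express a gene and less RNA per cell cannot be told apart.

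**Figure D1:**
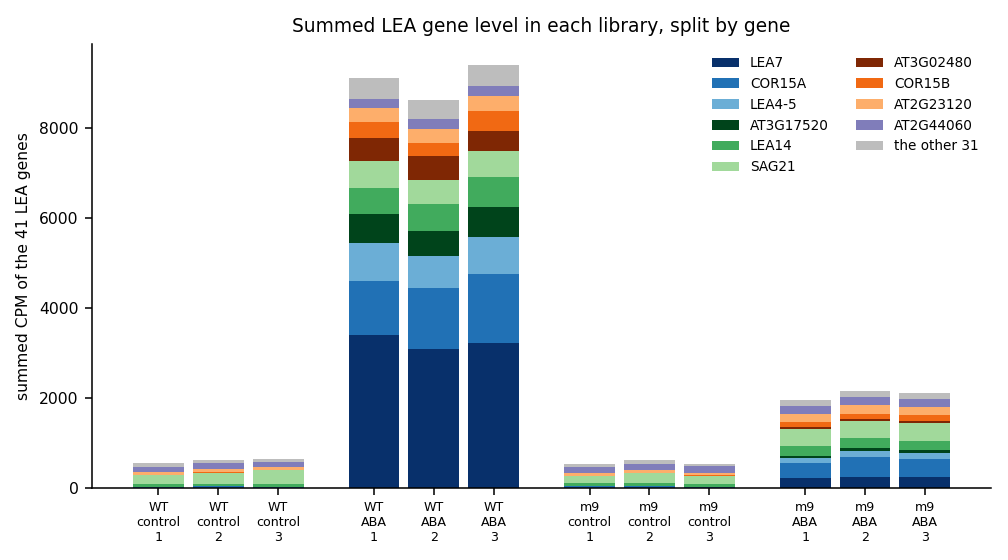
Summed CPM of the 41 LEA genes (vertical axis, linear from 0) in each of the 12 libraries (bars), split by gene. The WT ABA bars stand between 8633 and 9406 CPM, the m9 ABA bars between 1952 and 2148 CPM, and the 6 control bars between 524.7 and 647.6 CPM.

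Of the 31 tested members, 26 were higher with ABA in the wild type at an FDR under 0.05 and a change of at least 3-fold, against 7.18% of all 20617 genes tested in the same direction. At the FDR alone 29 members were higher (32.2% of all genes) and 1 was lower (36.4% of all genes). In m9, 24 members were higher by at least 3-fold (3.56% of all genes), 28 were higher at the FDR alone (25.9%) and 1 was lower (26.1%). All 24 called in m9 were among the 26 called in the wild type, and the remaining 2 were DI21 and AT4G21020. No member was lower by at least 3-fold in the wild type (7.16% of all genes) or m9 (2.43%), with edgeR's quasi-likelihood test, with an unadjusted p under 0.05 in place of the FDR, or with DESeq2. The median log2 fold change of the tested members was 5.63 in the wild type and 3.35 in m9, beside -0.06 and -0.01 over all genes tested, and with genes absent from the control placed at their lower bounds the medians were 5.63 and 3.26. Of the 26 genes called in the wild type, 19 had a WT control mean under 1 CPM, so that many of the folds rest on few control reads. The filter used all 4 groups, so members near 0 in control could enter the test through their level with ABA. With only the m9 groups fitted, 23 members were tested and 18 were called higher. Among the 24 called in m9, AT5G44310 had 0 counts in m9 control and a lower bound of 1.73-fold.

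**Figure D2:**
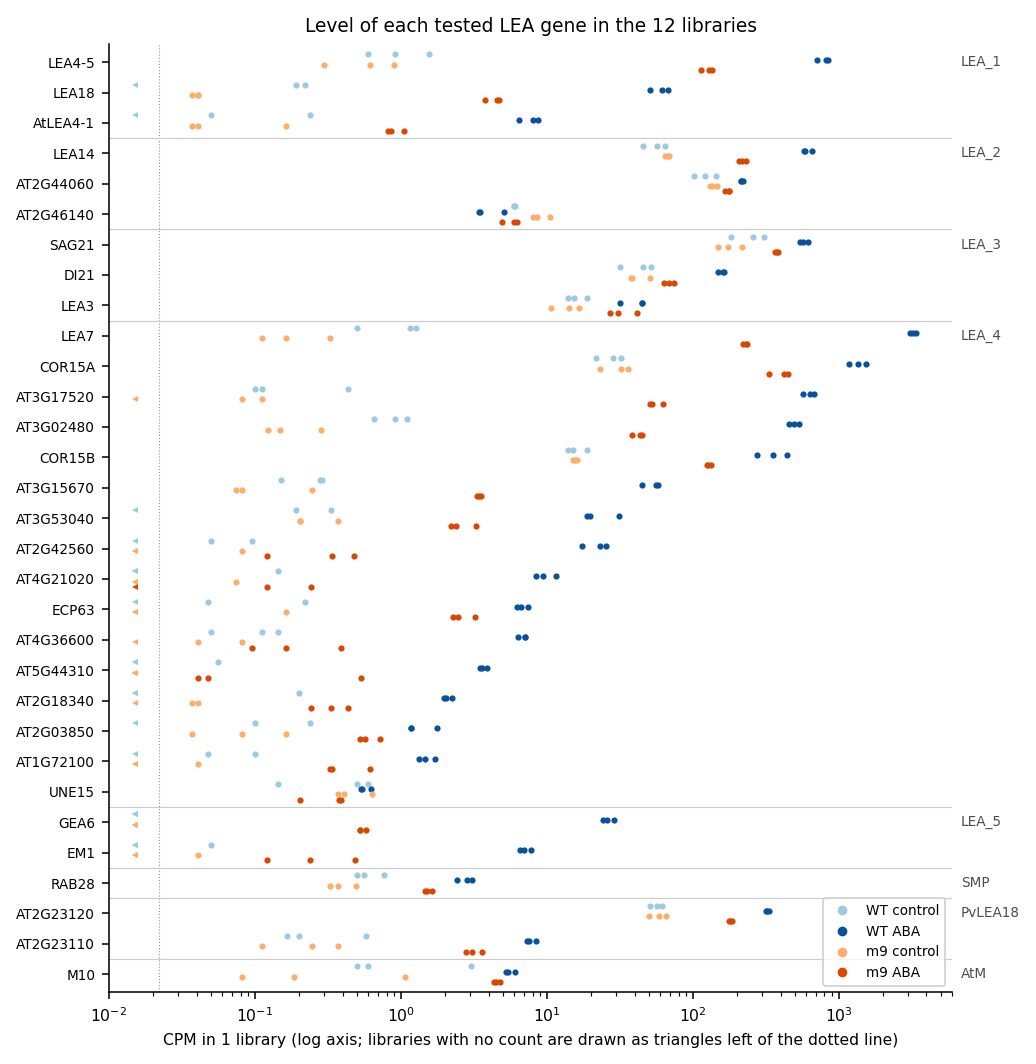
CPM of the 31 tested LEA genes (rows, by family) in each library on a log axis, with light and dark blue points for WT control and WT ABA and light and dark orange points for m9 control and m9 ABA. Triangles at the left mark libraries with no count. In most rows the dark orange points lie between the controls and the dark blue points, as for LEA7 with 221 to 235 CPM in m9 ABA and 3094 to 3409 CPM in WT ABA, whereas the m9 ABA and WT ABA points of LEA3 and AT2G46140 overlap.

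The sequences before these genes are shown because ABREs are the motifs through which ABA is known to act on LEA genes. In each window of 250 bases before the RefSeq gene start, 4 motifs were searched on both strands: the ABRE ACGTGNC, its core ACGTG (contained in the ABRE and counted on each strand, so that a palindromic CACGTG gives 2 matches), the CRT/DRE core CCGAC, which CBF and DREB factors bind, and the RY element CATGCA, which B3-domain factors bind. At least 1 ABRE core was found before 29 of the 41 members (70.7%), against 22.9% of 27437 promoters of the same length, and the longer ABRE before 24 (58.5%), against 8.6%. Among the 26 members called with ABA in the wild type, 24 held an ABRE core. Core matches numbered 2 or more in 21 of the 26, against 8.8% of all promoters. A single palindromic site supplied both matches of COR15A, RAB28 and M10. Of the 5 tested members that were not called 1 held a core, and of the 10 not tested 4 did. The CRT/DRE core stood before 16 members (39.0%, against 12.0% of all promoters), and the RY element before 6 (14.6%, against 8.4%). These matches are a description of the letters in the window, and binding was not measured.

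Below, ABRE cores and CRT/DRE cores are in capitals in windows of the TAIR10.1 assembly written 5′ to 3′ on the strand of the gene. The first 4 belong to members with large responses: GEA6 (chr2:16780369-16780618, minus strand), LEA7 (chr1:19619474-19619723, plus strand), AT3G17520 (chr3:6000448-6000697, minus strand) and LEA4-5 (chr5:2090431-2090680, minus strand). COR15A (chr2:17712331-17712580, minus strand) and its tandem neighbour COR15B (chr2:17710434-17710683, minus strand) are shown because both were called although only the first holds a match, with the annotated start 364 and 560 bases before the start codon. Apart from the 7 bases between the genes, the COR15B window lies inside the annotated COR15A gene, so its lack of matches says little about an upstream region. SAG21 (chr4:1047106-1047355, minus strand) is the most abundant member of the control seedlings, and AT2G46140 (chr2:18958749-18958998, plus strand) is the member that fell with ABA.
GEA6: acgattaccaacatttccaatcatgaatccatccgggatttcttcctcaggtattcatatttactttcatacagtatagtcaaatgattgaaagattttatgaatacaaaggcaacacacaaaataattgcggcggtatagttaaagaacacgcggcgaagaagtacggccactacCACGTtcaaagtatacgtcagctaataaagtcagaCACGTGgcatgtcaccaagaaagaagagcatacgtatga
LEA7: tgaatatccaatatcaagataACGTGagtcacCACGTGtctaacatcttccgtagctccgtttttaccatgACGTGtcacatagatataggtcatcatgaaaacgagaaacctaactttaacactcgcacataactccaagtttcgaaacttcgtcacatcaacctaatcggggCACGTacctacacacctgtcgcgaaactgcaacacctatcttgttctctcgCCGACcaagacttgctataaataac
AT3G17520: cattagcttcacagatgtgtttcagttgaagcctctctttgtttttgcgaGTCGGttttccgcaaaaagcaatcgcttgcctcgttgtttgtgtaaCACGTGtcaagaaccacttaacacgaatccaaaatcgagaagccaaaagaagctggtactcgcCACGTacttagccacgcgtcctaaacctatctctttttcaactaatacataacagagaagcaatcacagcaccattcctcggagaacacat
LEA4-5: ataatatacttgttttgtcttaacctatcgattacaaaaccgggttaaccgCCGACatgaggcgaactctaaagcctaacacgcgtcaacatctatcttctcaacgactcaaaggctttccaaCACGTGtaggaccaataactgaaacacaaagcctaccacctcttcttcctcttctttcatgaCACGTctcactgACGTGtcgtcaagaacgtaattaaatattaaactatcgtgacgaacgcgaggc
COR15A: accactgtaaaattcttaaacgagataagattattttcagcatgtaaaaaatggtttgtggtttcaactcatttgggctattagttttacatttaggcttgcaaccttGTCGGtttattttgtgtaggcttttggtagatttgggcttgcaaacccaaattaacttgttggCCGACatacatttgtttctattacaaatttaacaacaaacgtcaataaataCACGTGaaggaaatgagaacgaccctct
COR15B: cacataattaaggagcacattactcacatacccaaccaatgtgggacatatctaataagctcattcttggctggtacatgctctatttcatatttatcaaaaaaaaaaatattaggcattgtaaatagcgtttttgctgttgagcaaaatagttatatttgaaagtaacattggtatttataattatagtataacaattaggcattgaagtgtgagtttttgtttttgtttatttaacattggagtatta
SAG21: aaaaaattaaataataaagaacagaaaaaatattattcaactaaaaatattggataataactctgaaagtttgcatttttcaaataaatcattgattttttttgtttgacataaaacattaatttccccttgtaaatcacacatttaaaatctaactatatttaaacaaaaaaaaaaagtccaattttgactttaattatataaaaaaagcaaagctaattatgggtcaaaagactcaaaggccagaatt
AT2G46140: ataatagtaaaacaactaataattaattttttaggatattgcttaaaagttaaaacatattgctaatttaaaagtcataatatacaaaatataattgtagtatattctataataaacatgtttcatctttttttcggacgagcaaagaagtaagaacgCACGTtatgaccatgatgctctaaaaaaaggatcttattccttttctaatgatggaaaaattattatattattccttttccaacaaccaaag

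LEA7 held 5 core matches and a CRT/DRE core 25 bases before the start, LEA4-5 held 4 core matches between 127 and 49 bases before the start, and GEA6 and AT3G17520 held 3 each. COR15A had 2 CRT/DRE cores, at 142 and 79 bases, and a palindromic core near the start. No match to the 4 motifs was found in the windows of COR15B and SAG21, and AT2G46140 had a lone core 92 bases before its start.

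**Figure D3:**
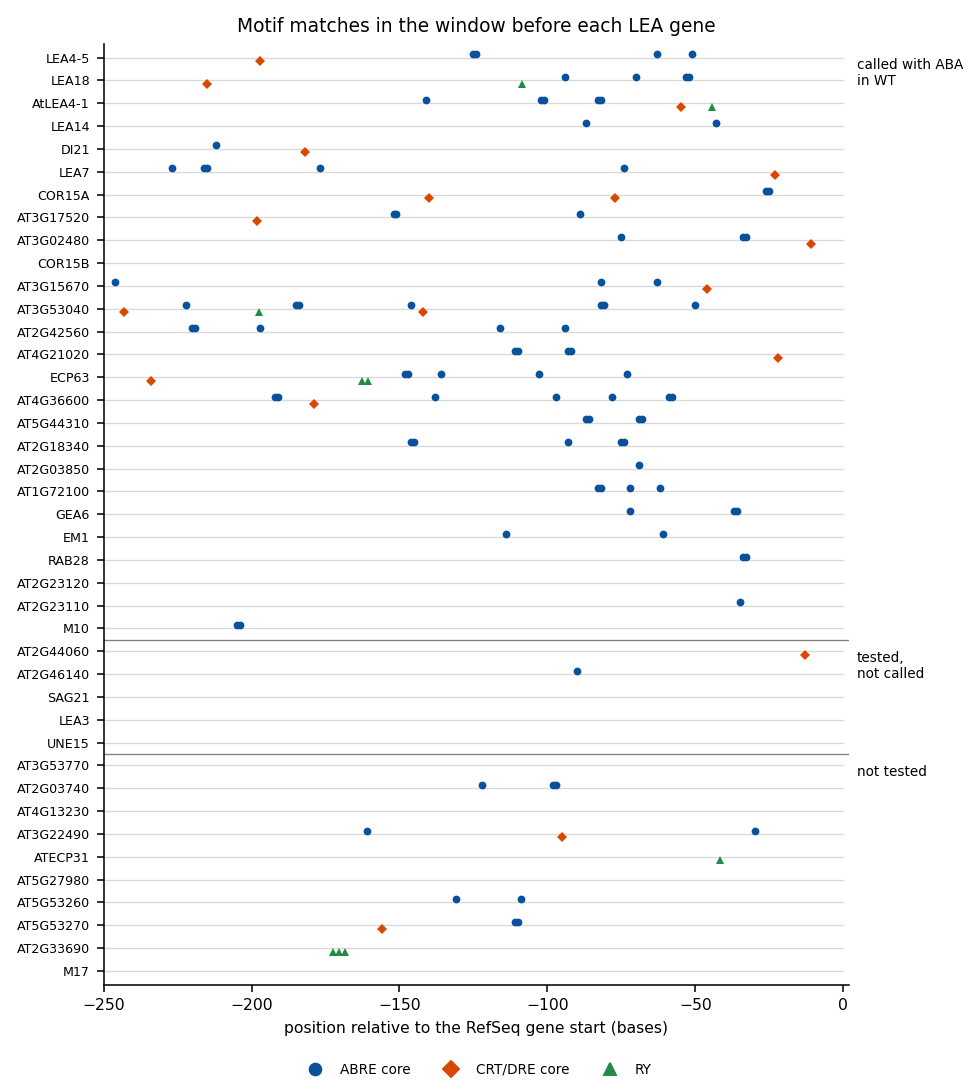
Position of motif matches (points) in the 250 bases before the RefSeq start of each LEA gene (rows), with the 26 genes called with ABA in the wild type at the top, the 5 tested genes not called in the middle and the 10 not tested at the bottom. Blue circles (ABRE cores) appear in 24 of the top 26 rows, 1 of the middle 5 and 4 of the lowest 10, and adjoining pairs of circles are palindromic matches counted on both strands.

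LEA_4 is the largest family and carried 68.6% of the summed LEA level in WT ABA and 42.0% in m9 ABA, against 7.83% in WT control. Its proteins carry short repeats and form amphipathic helices on drying. Of 18 genes 16 were tested. In the wild type 15 were called at least 3-fold higher with ABA and in m9 14 were, while UNE15 did not pass the test in either genotype. The family's median log2 fold change was 6.63 in the wild type and 3.56 in m9.

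LEA7 (AT1G52690, chromosome 1, 19619724 to 19621534), a stress-induced member, was the most abundant LEA transcript of the ABA-treated wild type and made up 35.8% of the summed level there. Its libraries had 0.501, 1.28 and 1.15 CPM in WT control and 3409, 3094 and 3214 CPM in WT ABA. In m9 they had 0.112, 0.329 and 0.163 CPM in control and 221, 235 and 232 CPM with ABA. Every m9 library lay below every wild-type library of the same treatment. The log2 fold change with ABA was 11.70 (standard error 0.25, adjusted p = 5.00e-13) in the wild type and 10.13 (standard error 0.26) in m9. Against the wild type, the log2 difference of LEA7 in m9 was -2.26 in control (standard error 0.40, adjusted p = 0.00752) and -3.82 with ABA (standard error 0.17), where m9 held 7.07% of the wild-type level. It overlaps a gene on the opposite strand by 297 bases, and whether reads were assigned by strand is not given in the sources used here.

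COR15A (AT2G42540, chromosome 2, 17710441 to 17712330) and COR15B (AT2G42530, chromosome 2, 17708593 to 17710433) encode chloroplast proteins known for stabilising membranes in freezing, and the genes are 7 bases apart. COR15A had 28.6, 32.5 and 21.6 CPM in WT control, 1186, 1349 and 1545 CPM in WT ABA, 35.8, 32.5 and 23.3 CPM in m9 control and 333, 453 and 421 CPM in m9 ABA. COR15B had 15.2, 18.7 and 14.0 CPM in WT control, 356, 275 and 443 CPM in WT ABA, 15.7, 16.0 and 15.2 CPM in m9 control and 126, 127 and 134 CPM in m9 ABA. The genotypes overlapped in control and were apart with ABA for both genes. The log2 fold changes with ABA were 5.63 (standard error 0.22) in the wild type and 3.72 (standard error 0.20) in m9 for COR15A, and 4.49 (standard error 0.17) and 3.04 (standard error 0.16) for COR15B. With ABA m9 held 29.6% of the wild-type level of COR15A and 36.0% of that of COR15B. COR15B overlaps AT2G42520 on the opposite strand by 468 bases, so part of its reads cannot be assigned with certainty.

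AT3G17520 (chromosome 3, 5999174 to 6000447) went from near absence to an abundant transcript. It had 0.1, 0.111 and 0.432 CPM in WT control, 635, 568 and 674 CPM in WT ABA, 0.112, 0.0823 and 0 CPM in m9 control and 50.9, 62.9 and 52.6 CPM in m9 ABA. The m9 ABA libraries stayed below all WT ABA libraries and above all controls. The log2 fold change was 11.43 in the wild type (standard error 0.27) and 9.59 in m9 (standard error 0.31), with 13 counts in all in WT control and 5 in m9 control behind them. The m9 ratio was 835, with an exact counting interval from 357 to 2573. AT3G02480 (chromosome 3, 512220 to 513036), a short protein of 207 coding bases, had 0.651, 1.11 and 0.912 CPM in WT control, 492, 534 and 460 CPM in WT ABA, 0.15, 0.123 and 0.286 CPM in m9 control and 38.5, 44.7 and 43.7 CPM in m9 ABA. Here too m9 was lower in both treatments without overlap, with a log2 difference of -2.22 in control (standard error 0.33, adjusted p = 0.00279) and -3.55 with ABA (standard error 0.12). Its ABA response was 9.12 in the wild type and 7.79 in m9 on the log2 scale.

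AT3G15670 (chromosome 3, 5309886 to 5310988) and AT3G53040 (chromosome 3, 19664629 to 19666497) showed the largest called differences between the 2 responses. AT3G15670 had 0.15, 0.278 and 0.288 CPM in WT control, 58.2, 45.3 and 56.0 CPM in WT ABA, 0.0749, 0.0823 and 0.245 CPM in m9 control and 3.52, 3.34 and 3.42 CPM in m9 ABA. AT3G53040 had 0, 0.334 and 0.192 CPM in WT control, 19.7, 18.9 and 31.1 CPM in WT ABA, 0.374, 0.206 and 0.204 CPM in m9 control and 2.38, 2.23 and 3.30 CPM in m9 ABA. For both, control levels overlapped between genotypes and WT ABA lay far above m9 ABA. The log2 fold change of AT3G15670 was 7.77 in the wild type and 4.63 in m9, and that of AT3G53040 was 7.04 and 3.30. AT3G53040 had 10 counts in all in WT control, and its ratio of 134 in the wild type has an exact 95% counting interval from 72.4 to 279. AT3G15670 had 10 in m9 control, and its ratio of 25.9 in m9 has an interval from 13.8 to 54.7.

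The other LEA_4 members were scarce in control, with at most 12 counts in a WT control library, and 8 of them rose in the wild type to group means between 1.38 and 22.0 CPM. AT2G42560 and AT4G21020 had the lowest m9 ABA levels relative to the wild type. AT2G42560 had 507, 416 and 477 counts in WT ABA and 10, 7 and 3 in m9 ABA, against 1, 0 and 2 in WT control and 0, 2 and 0 in m9 control, and m9 reached 1.42% of the wild-type level. AT4G21020 had 208, 201 and 215 counts in WT ABA and 0, 5 and 3 in m9 ABA, which is 1.24% of the wild-type level. Its ratio between genotypes was 80.1, with an exact counting interval from 40.4 to 186, and its response in m9, with 8 counts against 2, did not pass the test (adjusted p = 0.187). AT4G36600 reached 3.14% and AT5G44310 5.64% of the wild-type level in m9, and AT5G44310 owed its 13 counts in m9 ABA mostly to replicate 2, with 1, 11 and 1. Its m9 control libraries had 0 counts. Set against 3 counts in each of them, AT5G44310 was at least 1.73-fold higher with ABA in m9, so a 3-fold rise is not assured. ECP63, named for a carrot embryogenic cell protein, reached 39.1%, AT1G72100 28.4%, AT2G03850 44.2% and AT2G18340 16.2%. The calls of AT4G36600 and AT5G44310 in m9 were lost without m9 ABA replicate 2 (adjusted p = 0.133 and 0.0905). UNE15, known from a screen for embryo sac defects, had 0.601, 0.501 and 0.144 CPM in WT control and 0.547, 0.628 and 0.536 CPM in WT ABA, and the WT groups overlapped.

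LEA_1 proteins protect enzymes in vitro and are known for their part in drought tolerance of Arabidopsis. All 3 genes rose by at least 3-fold in both genotypes, and with ABA all 3 were lower in m9 by at least 3-fold. LEA4-5 (AT5G06760, chromosome 5, 2089445 to 2090430) had 0.601, 1.56 and 0.912 CPM in WT control, 852, 707 and 822 CPM in WT ABA, 0.299, 0.905 and 0.612 CPM in m9 control and 114, 136 and 129 CPM in m9 ABA. Controls overlapped between the genotypes and the ABA groups did not. Its log2 fold change was 9.61 in the wild type (standard error 0.27, adjusted p = 4.56e-12) and 7.71 in m9 (standard error 0.26), and m9 ABA held 15.9% of WT ABA. LEA18 reached a mean of 60.5 CPM in WT ABA and 7.18% of that in m9, and AtLEA4-1 reached 7.74 CPM and 11.8%. LEA18 had 8 counts in all in WT control, so that its ratio of 439.6 has an exact counting interval from 223 to 1019.

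LEA_5 holds the Em proteins, which are among the most hydrophilic proteins known and mark late seed maturation. Both genes were at or near 0 in all control seedlings and rose in both genotypes. GEA6 (EM6, AT2G40170, chromosome 2, 16779552 to 16780368) had 0 counts in all 6 control libraries, 537, 615 and 540 counts in WT ABA and 11, 12 and 13 counts in m9 ABA. Set against 3 counts in each control library, which is the limit that a count of 0 allows, GEA6 was at least 172-fold higher with ABA in the wild type and at least 4.56-fold higher in m9. With ABA its log2 difference between m9 and the wild type was -5.59 (standard error 0.17, adjusted p = 2.41e-08), at 2.06% of the wild-type level. EM1 had 154, 187 and 122 counts in WT ABA and 5, 10 and 3 in m9 ABA, which is 3.95% of the wild-type level, with 1 count in all in each control group. The EM1 ratio to control was 422 in the wild type, with an exact counting interval from 75.4 to 16701, and 20.5 in m9, with an interval from 3.24 to 855.

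LEA_2 proteins are atypical in that they are folded and less hydrophilic. The 3 genes behaved differently from each other. LEA14 (AT1G01470, chromosome 1, 171525 to 172948) had 64.9, 45.4 and 56.8 CPM in WT control, 579, 593 and 662 CPM in WT ABA, 68.0, 69.1 and 64.3 CPM in m9 control and 208, 231 and 218 CPM in m9 ABA. Its controls overlapped, and m9 ABA stood at 35.8% of WT ABA. The log2 fold change was 3.46 in the wild type (standard error 0.13) and 1.71 in m9 (standard error 0.12), the member with the smallest adjusted p for the difference of responses. AT2G44060 (chromosome 2, 18226263 to 18228293) was abundant throughout, with 121, 144 and 102 CPM in WT control, 214, 213 and 223 CPM in WT ABA, 136, 131 and 147 CPM in m9 control and 166, 177 and 178 CPM in m9 ABA. It rose by 0.82 on the log2 scale in the wild type (standard error 0.11, adjusted p = 1.63e-05) and by 0.33 in m9 (standard error 0.11, adjusted p = 0.0207), both under 3-fold. The m9 change lost its pass in 5 of 19 alternatives. Scaled by library totals alone, it was 0.16 and did not pass the test (adjusted p = 0.244).

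AT2G46140 (chromosome 2, 18958999 to 18960645), the third LEA_2 gene, was the only member that fell with ABA in both genotypes. It had 5.96, 5.95 and 6.05 CPM in WT control, 3.46, 3.52 and 5.09 CPM in WT ABA, 10.5, 8.60 and 8.0 CPM in m9 control and 5.95, 4.94 and 6.27 CPM in m9 ABA. The ABA libraries lay below the control libraries of the same genotype. Its expression fell by 0.58 on the log2 scale in the wild type (standard error 0.17, adjusted p = 0.00824) and by 0.66 in m9 (standard error 0.16, adjusted p = 0.00381). With ABA it was higher in m9 by 0.52 (standard error 0.17, adjusted p = 0.0256), a call that was lost without WT ABA replicate 1, WT ABA replicate 2, m9 ABA replicate 1 or m9 ABA replicate 3, with adjusted p up to 0.106.

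LEA_3 proteins are targeted to mitochondria or chloroplasts, and SAG21 is known as a senescence-associated and oxidative stress-responsive gene. The family made up 51.5% of the summed LEA level in WT control and 8.57% in WT ABA. Its 3 tested genes rose at the FDR in both genotypes, but only DI21 passed 3-fold, and in the wild type alone. Scaled by library totals without TMM factors, DI21 in the wild type was at 2.99-fold and not called. SAG21 (AT4G02380, chromosome 4, 1046042 to 1047105) had 184, 259 and 310 CPM in WT control, 620, 546 and 567 CPM in WT ABA, 149, 218 and 174 CPM in m9 control and 379, 364 and 385 CPM in m9 ABA. Its log2 fold change was 1.20 in the wild type (standard error 0.17) and 1.06 in m9 (standard error 0.17). With ABA m9 held 65.2% of the wild-type level, and 15.1% of its 50-base exon windows are shared with AT4G04125, an overlapping annotation. DI21 (AT4G15910, chromosome 4, 9028262 to 9029477), a drought-induced gene, had 45.3, 31.6 and 51.7 CPM in WT control, 164, 160 and 150 CPM in WT ABA, 37.7, 51.2 and 38.6 CPM in m9 control and 74.9, 69.2 and 64.1 CPM in m9 ABA. The log2 fold change of DI21 was 1.88 in the wild type (standard error 0.16) and 0.71 in m9 (standard error 0.16). LEA3 rose by 1.34 in the wild type and 1.26 in m9 on the log2 scale, and m9 ABA did not differ from WT ABA past the threshold (adjusted p = 0.212).

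PvLEA18, named for a bean protein, had 2 tested genes, which lie 475 bases apart and rose by at least 3-fold in both genotypes. AT2G23120 (chromosome 2, 9841842 to 9842634) had 57.4, 51.2 and 62.1 CPM in WT control, 316, 322 and 333 CPM in WT ABA, 58.5, 65.3 and 50.6 CPM in m9 control and 181, 185 and 178 CPM in m9 ABA. The replicates lay close together and the ABA groups were clearly apart, with m9 ABA at 56.1% of WT ABA. Its log2 fold change was 2.51 in the wild type (standard error 0.10) and 1.64 in m9 (standard error 0.10). AT2G23110 rose from a mean of 0.314 to 7.78 CPM in the wild type, and m9 ABA reached 40.6% of WT ABA.

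In the SMP and AtM families a single gene each could be tested. RAB28 (AT1G03120, chromosome 1, 752191 to 753140), an SMP gene of seeds whose maize counterpart is ABA-responsive, had 0.501, 0.556 and 0.768 CPM in WT control, 2.41, 3.06 and 2.84 CPM in WT ABA, 0.374, 0.494 and 0.327 CPM in m9 control and 1.47, 1.65 and 1.51 CPM in m9 ABA. All libraries with ABA were above all controls. Its log2 fold change was 2.17 in the wild type (standard error 0.24) and 1.94 in m9 (standard error 0.26). M10 (AT2G41280, chromosome 2, 17209697 to 17210423) had 0.601, 0.501 and 3.02 CPM in WT control, 5.42, 6.11 and 5.30 CPM in WT ABA, 0.187, 1.07 and 0.0816 CPM in m9 control and 4.76, 4.36 and 4.52 CPM in m9 ABA. WT control replicate 3 was well above the other 2 controls. The fold change of M10 was the only one of the 24 with a count in every group that was fitted larger in m9, with 1.99 in the wild type (standard error 0.54) and 3.35 in m9 (standard error 0.62) on the log2 scale, and the difference did not pass the test (adjusted p = 0.295). M10 with ABA was not lower in m9 past the threshold (log2 fold change -0.31, standard error 0.47, adjusted p = 0.62).

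The 10 members that were not tested had at most 15 counts in any library, and AT2G03740, AT5G53260 and AT5G53270 had none at all. A few appeared with ABA. AT3G22490, an SMP gene, had 7, 4 and 5 counts in WT ABA and 0 in every other library. ATECP31 had 0, 5 and 5 counts in WT ABA and 5, 0 and 3 in m9 ABA. M17 had 2, 5 and 5 counts in WT ABA and 7, 15 and 3 in m9 ABA, against 1, 0 and 2 in WT control and 0, 1 and 0 in m9 control. Fitted with no filter on low counts, AT3G22490 and ATECP31 were called higher with ABA in the wild type (adjusted p = 0.00603 and 0.0494), M17 in m9 (adjusted p = 0.00275), and AT3G22490 lower in m9 with ABA (adjusted p = 0.00883). Set against 3 counts in each library at 0, the bounds for AT3G22490 were only 1.64-fold higher with ABA in the wild type and 1.84-fold lower in m9. The M17 ratio in m9 was 28.5, with an exact counting interval from 4.66 to 1170.0, and 15 of its 25 counts in m9 ABA came from replicate 2. AT3G53770, AT4G13230, AT5G27980 and AT2G33690 had at most 3 counts in a library, and a change in them was not detectable at this depth.

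Whether the ABA response itself differed between genotypes was tested as the interaction, the response in m9 minus that in the wild type. Among the 24 members called in the wild type that had a count in every group, the fitted response was smaller in m9 for 23. These 24 were picked by their wild-type response, which by itself favours a smaller value in m9. The matching share over all genes was not computed. The interaction was below 0 at an FDR under 0.05 for 11 of the 31 tested members, against 9.55% of all genes, and above 0 for none (8.62% of all genes, and 0 members at an unadjusted p under 0.05 or with DESeq2). The 11 were LEA4-5 of LEA_1, LEA14 and AT2G44060 of LEA_2, DI21 of LEA_3, AT2G23120 of PvLEA18, and COR15A, COR15B, LEA7, AT3G02480, AT3G15670 and AT3G53040 of LEA_4. Their log2 differences ranged from -3.74 (standard error 0.81) for AT3G53040 to -0.49 (standard error 0.15) for AT2G44060. The calls of AT2G44060, LEA7 and AT3G02480 were lost under most alternatives. At an unadjusted p under 0.05 there were 15, all below 0, against 6697 of all 20617 genes in either direction.

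Of the 20 tested members without a called interaction, 13 had a standard error over 0.8 on the log2 scale, besides GEA6, for which no response could be estimated because both control groups were at 0. Thus AT2G42560 had a difference of -5.34 (standard error 2.09, adjusted p = 0.0934) and EM1 one of -4.42 (standard error 2.46, adjusted p = 0.232). Precision was better for SAG21, with -0.14 (standard error 0.24, adjusted p = 0.718), and LEA3, with -0.08 (standard error 0.28, adjusted p = 0.873). The count of called members was 7 without m9 control replicate 3, and 8 when libraries were scaled by their totals alone.

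**Figure D4:**
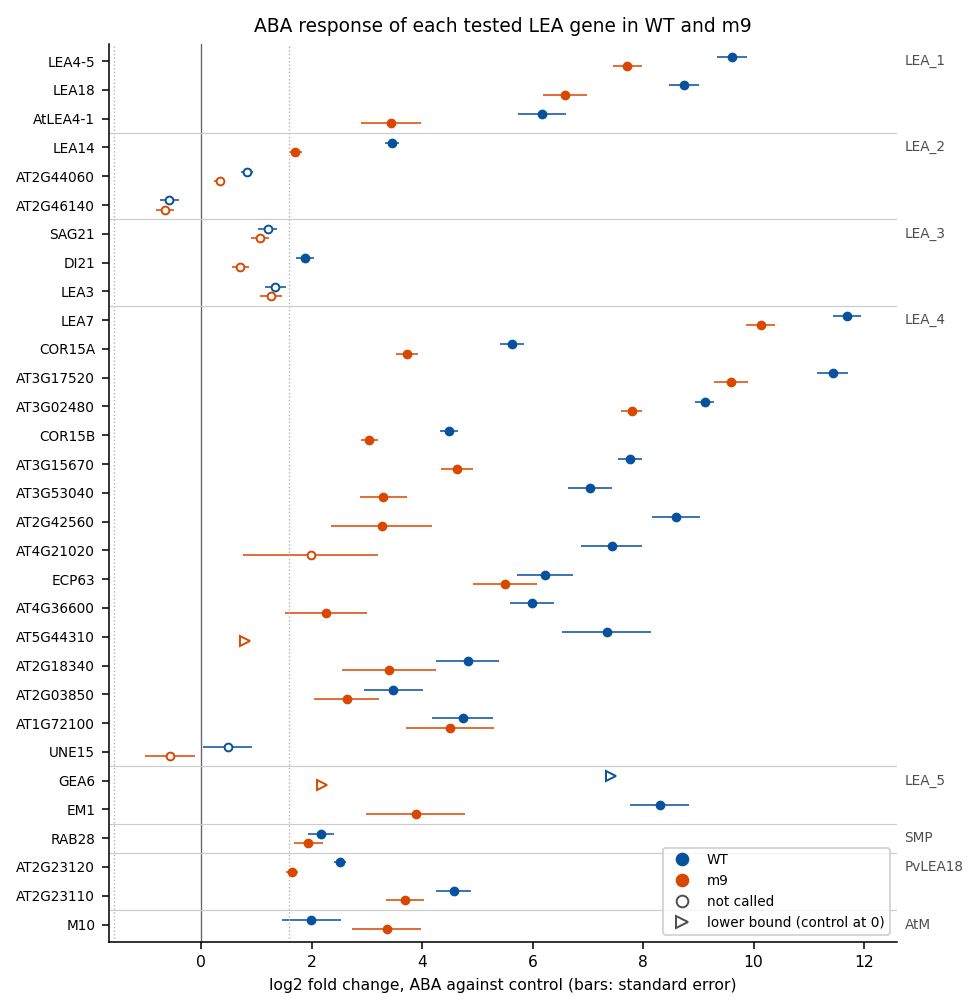
Log2 fold change with ABA (horizontal axis, bars are standard errors) of the 31 tested LEA genes by family, in WT (blue) and m9 (orange). Filled points passed an FDR under 0.05 and 3-fold (dotted lines), and open triangles are lower bounds for groups with no count in control. Orange points lie to the left of blue points in the rows of all called genes with both fitted except M10, for example at 10.13 against 11.70 for LEA7, while the pairs of SAG21 (1.06 and 1.20) and LEA3 (1.26 and 1.34) nearly coincide.

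The levels of m9 and the wild type were then compared within each treatment. These comparisons use the same libraries as the ABA responses and are not independent of them. With ABA, 17 members were lower in m9 by at least 3-fold (1.88% of all genes) and 27 at the FDR alone (20.7% of all genes), and 1, AT2G46140, was higher at the FDR alone (21.3% of all genes). None was higher by at least 3-fold (2.63% of all genes, and 0 members with DESeq2). The median log2 difference of the 31 members was -1.81, beside 0.02 over all genes. Among the 27 lower members, m9 held between 1.24% and 80.3% of the wild-type level, with a median of 15.9%. The highest was AT2G44060, whose call was lost in 6 of 19 alternatives (adjusted p up to 0.232), and AT2G03850 lost its call in 3 of 18 (adjusted p up to 0.119). The 17 comprised 12 LEA_4, 3 LEA_1 and 2 LEA_5 genes. The tested LEA_2, LEA_3, PvLEA18, SMP and AtM genes were within 3-fold, and LEA3, UNE15 and M10 did not pass the FDR.

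In control seedlings, LEA7 and AT3G02480 were lower in m9 by at least 3-fold (0.141% of all genes) and no other member passed the FDR in that direction (2.29% of all genes). No member was higher at the FDR (2.58% of all genes) or by at least 3-fold (0.354%, and 0 members with DESeq2). With an unadjusted p under 0.05 there were 2 higher and 5 lower, against 4447 of all 20617 genes in either direction, a similar share. AT2G46140 was higher in m9 control without overlap and just missed the threshold (log2 difference 0.60, standard error 0.16, adjusted p = 0.0504). The median log2 difference was -0.48, beside 0.00 over all genes, with 23 members below 0 and 7 above (49.6% of all genes were above 0). The filter used all 4 groups, and with the control groups fitted alone only 15 members could be tested. This median and split therefore include members that entered through their level with ABA and had few or no control counts. Both calls rest on low counts, 10, 23 and 24 in WT control against 3, 8 and 4 in m9 control for LEA7, and 13, 20 and 19 against 4, 3 and 7 for AT3G02480. They were lost when the control groups were fitted alone (adjusted p = 0.11 and 0.0706).

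**Figure D5:**
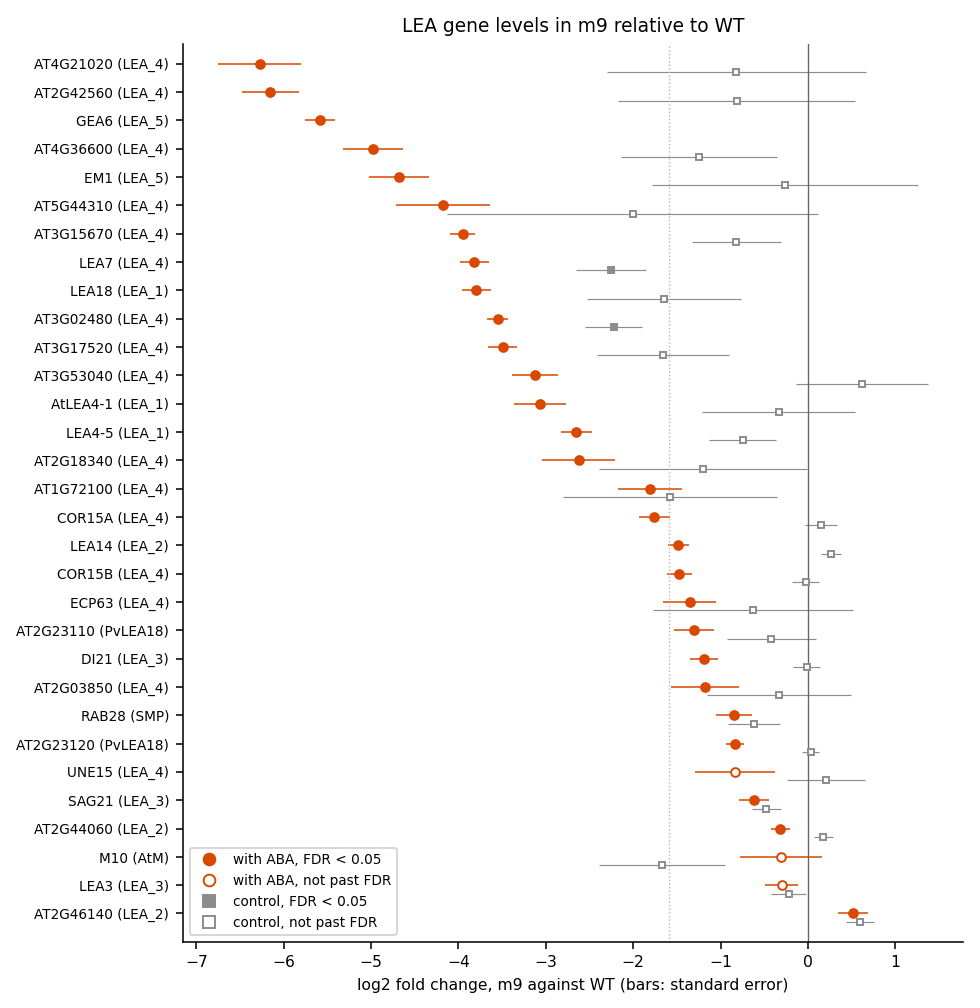
Log2 fold change of m9 against WT with ABA (orange circles) and in control (grey squares), with standard errors, for the 31 tested LEA genes ordered by the difference with ABA. Filled symbols passed an FDR under 0.05 and the dotted line marks 3-fold lower. The orange circles run from -6.27 for AT4G21020 to 0.52 for AT2G46140, and only LEA7 (-2.26) and AT3G02480 (-2.22) have filled squares. GEA6 has no square because both control groups were at 0.

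Per kilobase of exon, the order of the members changed with ABA and differed between genotypes. In WT control SAG21 led with 190.0 to 320.1 CPM per kilobase, followed by AT2G44060 with 71.8 to 101.5 and AT2G23120 with 64.6 to 78.3, which overlapped. In WT ABA LEA7 led with 3423 to 3771 CPM per kilobase, above all other members. AT3G02480 (837 to 970.4), LEA4-5 (783 to 943) and COR15A (749 to 975) came next and overlapped each other, followed by SAG21 (564 to 640.3). In m9 ABA SAG21 again led with 376 to 398 CPM per kilobase, ahead of COR15A (210.3 to 286), LEA7 (244 to 259) and AT2G23120 (225 to 234). COR15A overlapped both LEA7 and AT2G23120, and the latter did not overlap each other. The 8 members with a WT control mean of at least 10 CPM, namely SAG21, AT2G44060, AT2G23120, LEA14, DI21, COR15A, COR15B and LEA3, made up 97.8% of the summed LEA level in WT control and 40.3% in WT ABA.

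Other genes of the same biology are given for reference. Dehydrins, the LEA family left out here, had 9 of 10 genes tested, of which 7 rose by at least 3-fold with ABA in each genotype and 1 fell in the wild type, with a median log2 fold change of 3.48 in the wild type and 2.32 in m9. With ABA 7 of the 9 were lower in m9 at the FDR and 1, AT4G38410, was 6.16-fold higher (adjusted p = 0.00715), with an interaction above 0 of 2.88 (adjusted p = 0.0373). AT4G38410, which is also the dehydrin that fell in the wild type, was scarce, so these values rest on few reads. It averaged 0.624 CPM (standard deviation 0.615) in WT control, 0.123 in WT ABA, 0.505 in m9 control and 0.802 in m9 ABA. Of 18 genes for transcription factors known to act on LEA genes, 10 were tested, and 7 rose by at least 3-fold in the wild type and 5 in m9. Among them the bZIP factor ABI5 averaged 5.33 CPM in WT control, 42.7 in WT ABA, 3.34 in m9 control and 12.7 in m9 ABA. ABF3 averaged 32.8, 455, 35.2 and 223 CPM in the same order. Interactions below 0 were called for ABI5, ABF2 and ABF3 of the 10. The seed factors ABI3, FUS3 and LEC1 had means of at most 0.334 CPM in every group.

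Markers of seed and leaf tissue were compared across the same groups. The summed level of the 10 seed storage genes was 3.50 to 10.9 CPM in WT control, 59.7 to 81.0 in WT ABA, 1.42 to 5.84 in m9 control and 15.6 to 24.8 in m9 ABA, nearly all of it from PAP85, a vicilin-like protein with 69.1 CPM on average in WT ABA. The 12S and 2S storage protein genes, which define seed tissue, had at most 9 counts together in a library apart from the 81 in m9 ABA replicate 2, and AT1G03890 was at 0 in all libraries. That replicate also held 11 of 13 counts of AT5G44310 and 10 of 18 counts of EM1 in m9 ABA, and without it EM1 kept its call, AT5G44310 and AT4G36600 lost theirs, and 22 members rather than 24 were called higher with ABA in m9. The summed level of 7 leaf photosynthesis genes was 38670 to 40817 CPM in WT control, 31408 to 34783 in WT ABA, 39851 to 44542 in m9 control and 39763 to 43477 in m9 ABA, and 5 of the 7 were lower with ABA in the wild type at the FDR. In m9, 3 were lower and 1, LHCB2.1, was higher, and with ABA 5 of the 7 were higher in m9 than in the wild type. The part of these shifts in the LEA results was not tested.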

How the data were processed

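Counts of reads per gene were deposited for 12 libraries (4 groups of 3). According to the submitters' processing notes, the authors trimmed reads with Trimmomatic 0.36, aligned them to TAIR10 with HISAT2 2.1.0 and counted them with HTSeq 0.9.1. The paper gives other versions of Trimmomatic and HTSeq. Whether reads were assigned by strand is not given in the sources used here. The deposited counts were not normalised. They were analysed in R 4.3.3 with edgeR 4.0.16: genes were filtered by group, scaled by TMM, and fitted with 1 mean per group by the quasi-likelihood method. Adjusted p-values (Benjamini-Hochberg) cover all 20617 genes tested. A call needed an FDR under 0.05 and at least 3-fold, and for the interaction the FDR alone. The biological coefficient of variation was 11.9%.

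Groups at 0 were set to 3 counts in each library, and for changes that rest on group totals of 1 to 10, ratios with exact 95% intervals, which cover counting error only, are given for the members described most closely. Values per library are given for the highest member of each family, members called in the interaction or between genotypes in control, members lower with ABA and the 3 largest ABA changes in the wild type. Gene positions, symbols and promoters come from RefSeq on TAIR10.1, matched by locus identifier. The 41 members are defined by gene identity, but the group and the other lists were chosen for description with earlier results of these data known. The fits were tested on simulated data. Alternatives were DESeq2 1.42.0, other scalings and filters, a replicate block and leaving out each library. All columns of the table were used.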

Additional observations from a re-analysis of the deposited data

Results flagged for a closer look

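The ABA response differed between the genotypes, by the interaction test of edgeR's quasi-likelihood fit, for 11 of the 31 tested LEA genes, each with a smaller response in m9. Values are the response in m9 minus that in the wild type on the log2 scale. Among genes abundant in control seedlings, LEA14 had a difference of -1.75 (adjusted p = 2.12e-05), DI21 one of -1.17 (adjusted p = 0.00273) and AT2G23120 one of -0.86 (adjusted p = 0.00103). AT2G44060 had the smallest difference, -0.49 (adjusted p = 0.0384). The cold-regulated pair had -1.91 for COR15A (adjusted p = 0.000297) and -1.45 for COR15B (adjusted p = 0.000496). Among genes near absence in control, AT3G53040 had -3.74 (adjusted p = 0.00622), AT3G15670 -3.13 (adjusted p = 0.00356), LEA4-5 -1.90 (adjusted p = 0.00822), LEA7 -1.57 (adjusted p = 0.0496) and AT3G02480 -1.33 (adjusted p = 0.0424). The call was lost in 12 of 18 alternatives for AT2G44060 and in 11 of 17 each for LEA7 and AT3G02480. In all 11 genes every m9 ABA library was below every WT ABA library, but the 11 were picked by a test on these same libraries. The same separation was seen in UNE15 and M10, whose difference with ABA did not pass the FDR. Its share over all genes was not computed.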

How the results depend on the processing

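The counts of called members were recomputed under each alternative, and no direction was reversed. With at least 10 counts required in every library, 9 members could be tested, of which 5 were higher with ABA in the wild type, 4 in m9, 0 were lower in m9 control, 1 was lower in m9 with ABA and 6 had a called interaction. With the FDR alone, 1 member was lower with ABA in each genotype, and m9 with ABA was lower for 27 and higher for 1. With only the compared groups fitted, 0 of 15 tested members were lower in m9 control, and 18 of 23 were higher with ABA in m9. Leaving out each library in turn gave 26 to 26 members higher in the wild type, 22 (without m9 ABA replicate 2) to 24 in m9, 2 to 3 lower in m9 control, 17 to 18 lower in m9 with ABA, and 7 (without m9 control replicate 3) to 14 (without WT control replicate 3) interactions. Library totals without TMM factors moved the median of all genes by -0.30 for ABA in the wild type and -0.17 in m9. Under that scaling 25 members were called higher in the wild type (DI21 was lost), 22 in m9 (LEA14 and AT2G23120 were lost, at 2.90-fold and 2.77-fold) and 8 interactions. With no filter on low counts, 38 members were tested, of which 28 were higher in the wild type, 25 in m9, and 18 lower in m9 with ABA. The interaction calls of AT2G44060, LEA7 and AT3G02480 were lost under most alternatives, with adjusted p up to 0.122, 0.321 and 0.361. Same-numbered libraries showed no deviation common to all groups (correlations from -0.486 to 0.383 over 18 pairs, 4 of them over 0.1). The highest correlation was for replicate 1 of WT control and m9 control. A replicate block gave 26, 24, 2 and 17 calls in the same order, and 9 interactions instead of 11. DESeq2 gave 16 interactions. The causes of these shifts were not tested.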
